A study of Homo sapiens with 9 samples.

Results

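The genes of cholesterol and fatty acid synthesis were followed in HEK293T cells that overexpressed the kinase PLK2. The set holds 34 genes, picked by symbol from the deposited table: 5 genes that regulate the pathway, 7 enzymes of the mevalonate steps, 11 enzymes of the sterol steps, 3 genes of cholesterol transport and 8 enzymes of fatty acid synthesis and desaturation. All 34 were among the 17083 genes of the table, and all 34 were among the 12924 genes that passed the filter on low counts. HEK293T cells are a readily transfected line derived from human embryonic kidney, with the SV40 large T antigen. The groups were 3 libraries of cells overexpressing PLK2, 3 of cells overexpressing PLK2(D223N), which has a substitution in the kinase domain, and 3 of cells given a FLAG vector (Vector). All cells were labelled wild type. The series' design text describes the 3 libraries per group as biological replicates. The labels give neither the promoter of the constructs, nor the time after transfection, nor the sterol content of the medium. Kinase activity was not measured here.

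Cells build cholesterol from acetyl-CoA by way of mevalonate, isoprenoid diphosphates and squalene, and they build saturated and unsaturated fatty acids from the same acetyl-CoA. Transcription of both routes is driven by the SREBP proteins, the products of SREBF1 and SREBF2, which are made as precursors in the membrane of the endoplasmic reticulum. The escort protein SCAP carries the precursors to the Golgi apparatus when sterols are scarce, where proteases free the active factor. INSIG1 and INSIG2 hold SCAP back when sterols are plentiful, so RNA levels of SREBP targets are commonly read as a measure of sterol supply.

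SREBP acts at promoters beside the factors NF-Y, which binds CCAAT, and Sp1, which binds GC-rich boxes. RefSeq promoter windows (build GRCh38.p14) matched 30 of the 34 genes. The background was all 27305 genes with a window, not only genes expressed in these cells. Shares among expressed genes alone were not computed, so the differences below cannot be assigned to the pathway. In the 250 bases before the RefSeq start site, CCAAT on either strand was present for 21 of these 30 genes (70%), against 37% of all genes with a window. GGGCGG on either strand was present for 96.7%, against 46.2% of all genes, and CACGTG for 10%, against 7.73%. The sterol element TCACNCCAC on either strand was present for 3.33%, which is SREBF2 alone, against 1.09% of all genes. These matches describe letters in a window and not binding, and none of the 4 motifs searched contains another. The windows of SREBF2, STARD4 and MSMO1 are shown, the first for its sterol element and the others because the 2 genes had the highest log2 fold changes in a comparison below. They lie at chr22:41832855-41833104 on the plus strand, chr5:111512536-111512785 on the minus strand and chr4:165327419-165327668 on the plus strand. Capitals mark CCAAT or its complement ATTGG and, in SREBF2, also TCACCCCAC.
SREBF2: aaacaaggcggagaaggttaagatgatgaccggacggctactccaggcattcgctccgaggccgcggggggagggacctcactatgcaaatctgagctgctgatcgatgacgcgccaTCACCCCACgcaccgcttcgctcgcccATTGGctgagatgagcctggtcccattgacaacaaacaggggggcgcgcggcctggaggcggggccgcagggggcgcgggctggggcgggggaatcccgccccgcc
STARD4: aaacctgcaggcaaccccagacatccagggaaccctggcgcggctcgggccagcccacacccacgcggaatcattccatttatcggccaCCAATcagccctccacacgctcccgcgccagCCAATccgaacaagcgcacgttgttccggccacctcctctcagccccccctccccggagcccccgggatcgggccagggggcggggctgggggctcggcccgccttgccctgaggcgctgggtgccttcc
MSMO1: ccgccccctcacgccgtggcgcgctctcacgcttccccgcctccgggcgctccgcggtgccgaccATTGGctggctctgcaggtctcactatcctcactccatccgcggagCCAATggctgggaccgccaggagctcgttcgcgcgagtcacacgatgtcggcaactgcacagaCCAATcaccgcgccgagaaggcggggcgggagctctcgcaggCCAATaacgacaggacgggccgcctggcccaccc
STARD4 has CCAAT 2 times and MSMO1 has it 4 times in these 250 bases.

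The libraries held between 14288165 and 16510186 estimated counts. PLK2 RNA followed the labels, at 23744 ± 2384 CPM (counts scaled to the library total by TMM) in PLK2, 12358 ± 1650 CPM in PLK2(D223N) and 3.42 ± 0.64 CPM in Vector libraries (SD, n = 3 each). The 2 constructs were thus not matched in RNA level, with a fold change on the log2 scale of 0.94 (SE 0.090, adjusted p = 4.99e-05, edgeR) between them. Vector replicate 1 stood apart from the other Vector libraries, with a chi-square per gene of 17.8 and 10.8 against replicates 2 and 3, which differed from each other by 2.68. Pairs of libraries within either construct group gave 1.63 to 2.81. Of the 9 libraries, Vector replicate 1 had the highest level of 21 and the lowest level of 6 of the 34 genes, and it was at one end of the 9 for 62.3% of all genes tested. The median SD of log2 CPM over the 34 genes was 0.050 in PLK2, 0.039 in PLK2(D223N) and 0.086 in Vector libraries, beside 0.063, 0.058 and 0.12 over all genes. VIM, an intermediate filament gene of this line, averaged 589 TPM (the deposited level per transcript length). Summed levels of microglia and macrophage markers were 2.57 to 2.86 TPM in PLK2, 1.75 to 2.40 TPM in PLK2(D223N) and 2.48 to 2.66 TPM in Vector libraries. Leukocyte, fibroblast and endothelial markers each summed to no more than 3.72 TPM in any library. The cells were labelled epithelial, and the epithelial keratin genes KRT18 and KRT8 averaged 69.0 and 23.5 TPM in PLK2, 69.8 and 24.0 TPM in PLK2(D223N) and 69.9 and 23.6 TPM in Vector libraries. EPCAM was lower, at 2.73 TPM in PLK2, 2.66 TPM in PLK2(D223N) and 2.83 TPM in Vector libraries, and the kidney genes PAX2 and LHX1 were below 1 TPM.

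The pathway was expressed throughout in these cells. Per length of transcript, the highest level belonged to SCD, the desaturase that makes monounsaturated fatty acids, with 403 ± 20.95 TPM in PLK2, 426 ± 5.04 TPM in PLK2(D223N) and 441 ± 17.5 TPM in Vector libraries (SD, n = 3 each). ACLY, which supplies acetyl-CoA from citrate, followed with a mean over the 9 libraries of 291 TPM, then FDPS, which makes farnesyl diphosphate, with 219.6 TPM. The lowest levels were those of FADS2 (9.33 TPM), SREBF1 (7.27 TPM) and the sterol reductase gene TM7SF2 (6.48 TPM). Of the SREBP genes, SREBF2 had 44.9 ± 0.806 TPM in PLK2, 45.3 ± 0.289 TPM in PLK2(D223N) and 45.8 ± 2.66 TPM in Vector libraries, and SREBF1 had 6.87 ± 0.550 TPM in PLK2, 8.09 ± 0.798 TPM in PLK2(D223N) and 6.85 ± 0.280 TPM in Vector libraries (SD, n = 3 each). SREBF2 RNA was thus above SREBF1 RNA in each group by far more than the SD. SCAP averaged 28.1 TPM, INSIG1 89.1 TPM and INSIG2 11.95 TPM over the 9 libraries. No gene of the set was near the limit of detection. TM7SF2 had the lowest count, 62 in 1 library, and the lowest level in any library, 3.89 CPM.

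**Figure D1:**
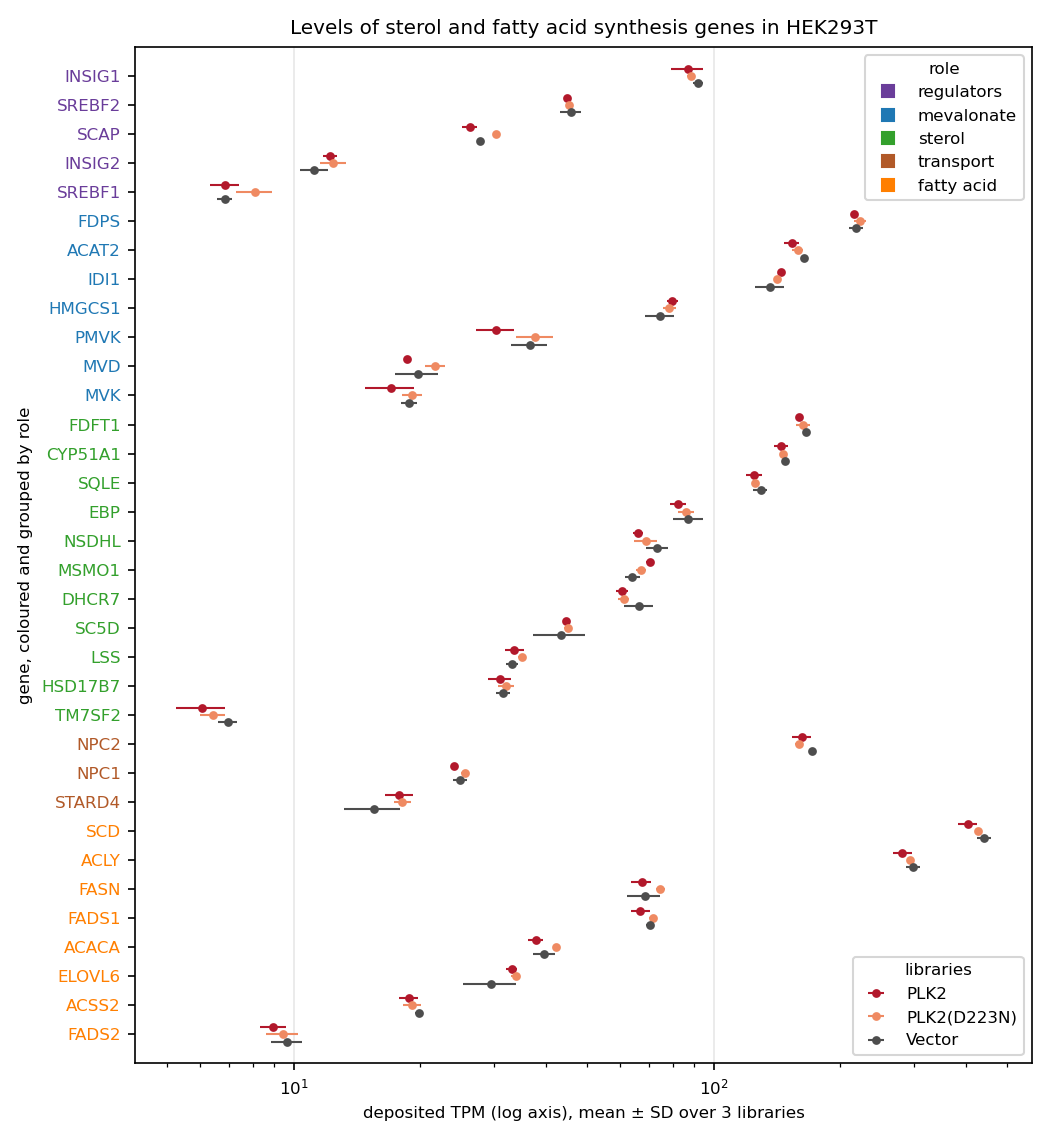
Levels of the 34 genes as deposited TPM on a log axis, with points for the mean and bars for the SD over 3 libraries of the PLK2, PLK2(D223N) and Vector groups, and gene names coloured by role. The groups lie close together for each gene, while SCD at 423 TPM and TM7SF2 at 6.48 TPM mark the ends of the range between genes.

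Summed over the 18 enzymes of the mevalonate and sterol steps, the level was 1484 ± 2.0 TPM in PLK2, 1518 ± 10 TPM in PLK2(D223N) and 1519 ± 4.4 TPM in Vector libraries (SD, n = 3 each). TPM values sum to a constant in each library, and PLK2 RNA itself took 1.57 to 1.84% of the total in PLK2 and 0.793 to 1.04% in PLK2(D223N) libraries. With PLK2 left out of the total, the sums were 1509.6 TPM in PLK2, 1532 TPM in PLK2(D223N) and 1519 TPM in Vector libraries. The 8 fatty acid genes summed to 917 ± 46 TPM in PLK2, 970.0 ± 4.6 TPM in PLK2(D223N) and 977 ± 30 TPM in Vector libraries, and without PLK2 in the total to 933, 979 and 977 TPM. No test was made of these sums, since the genes were chosen with earlier results known.

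No gene of the set passed the test in any of the 3 comparisons. In edgeR's quasi-likelihood test (adjusted p below 0.05, Benjamini-Hochberg over all genes tested) 0 of 34 genes were called for PLK2 against Vector, where 0.511% of all tested genes were called. The count was 0 of 34 for PLK2(D223N) against Vector, with 0.0232% of all genes called, and 0 of 34 for PLK2 against PLK2(D223N), with 0.162%. The lowest adjusted p of the set was 0.226, 0.574 and 0.636 in these comparisons. At an unadjusted p below 0.05 the counts were 6, 1 and 4 of 34, that is 17.6%, 2.94% and 11.8% of the genes, against 16.4%, 8.53% and 6.04% of all genes tested. The DESeq2 Wald test also called 0 of 34 in each comparison, where it called 1.11%, 0.0696% and 0.286% of all genes. Its counts at an unadjusted p below 0.05 were 4, 1 and 2 of 34, against 12.3%, 5.66% and 3.39% of all genes. In limma on log2(TPM + 1) the count was 0 of 34 in each comparison, where 0.158%, 0.025% and 0.0917% of all genes were called. At an unadjusted p below 0.05 limma gave 5, 3 and 6 of 34, against 14.6%, 9.29% and 9.98% of all genes. Fewer cells expressing a gene and less RNA per cell cannot be told apart in bulk libraries, and the values are relative to the total RNA sequenced.

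The fold changes of the 34 genes were small. For PLK2 against Vector the log2 fold changes ran from -0.26 (PMVK) to 0.24 (STARD4), with a median of -0.065 over the 34 genes and -0.0044 over all genes tested. For PLK2(D223N) against Vector they ran from -0.18 (DHCR7) to 0.19 (STARD4), with a median of -0.040 against 0.0078 over all genes. For PLK2 against PLK2(D223N) they ran from -0.26 (PMVK) to 0.12 (MSMO1), with a median of -0.0027 against -0.0049. The 95% interval of the fold change lay within 0.5 of 0 for 32, 34 and 33 of 34 genes in the 3 comparisons, in the order given, and within 0.25 of 0 for 22, 22 and 27. The genes whose interval went past 0.5 were PMVK and TM7SF2 for PLK2 against Vector and PMVK for PLK2 against PLK2(D223N). The median half-width of the unadjusted interval was 0.14 in each comparison. For PLK2 against Vector it ran from 0.10 to 0.29 over the genes. Intervals of this width leave small differences unresolved for many of the genes, and the half-width is not a limit of detection. The adjusted test is stricter than this interval, and differences above 0.14 in size went uncalled, such as PMVK at -0.26 and STARD4 at 0.24 for PLK2 against Vector. Leaving out 1 library in turn moved the fold change by over 1.5 times, in at least 1 of the 9 fits, for 28, 29 and 26 of 34 genes, and turned its sign for 8, 14 and 11. Among the 12, 11 and 6 genes with a value of at least 0.1 on the log2 scale in either direction, 10, 8 and 2 moved this far and 0 turned.

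**Figure D2:**
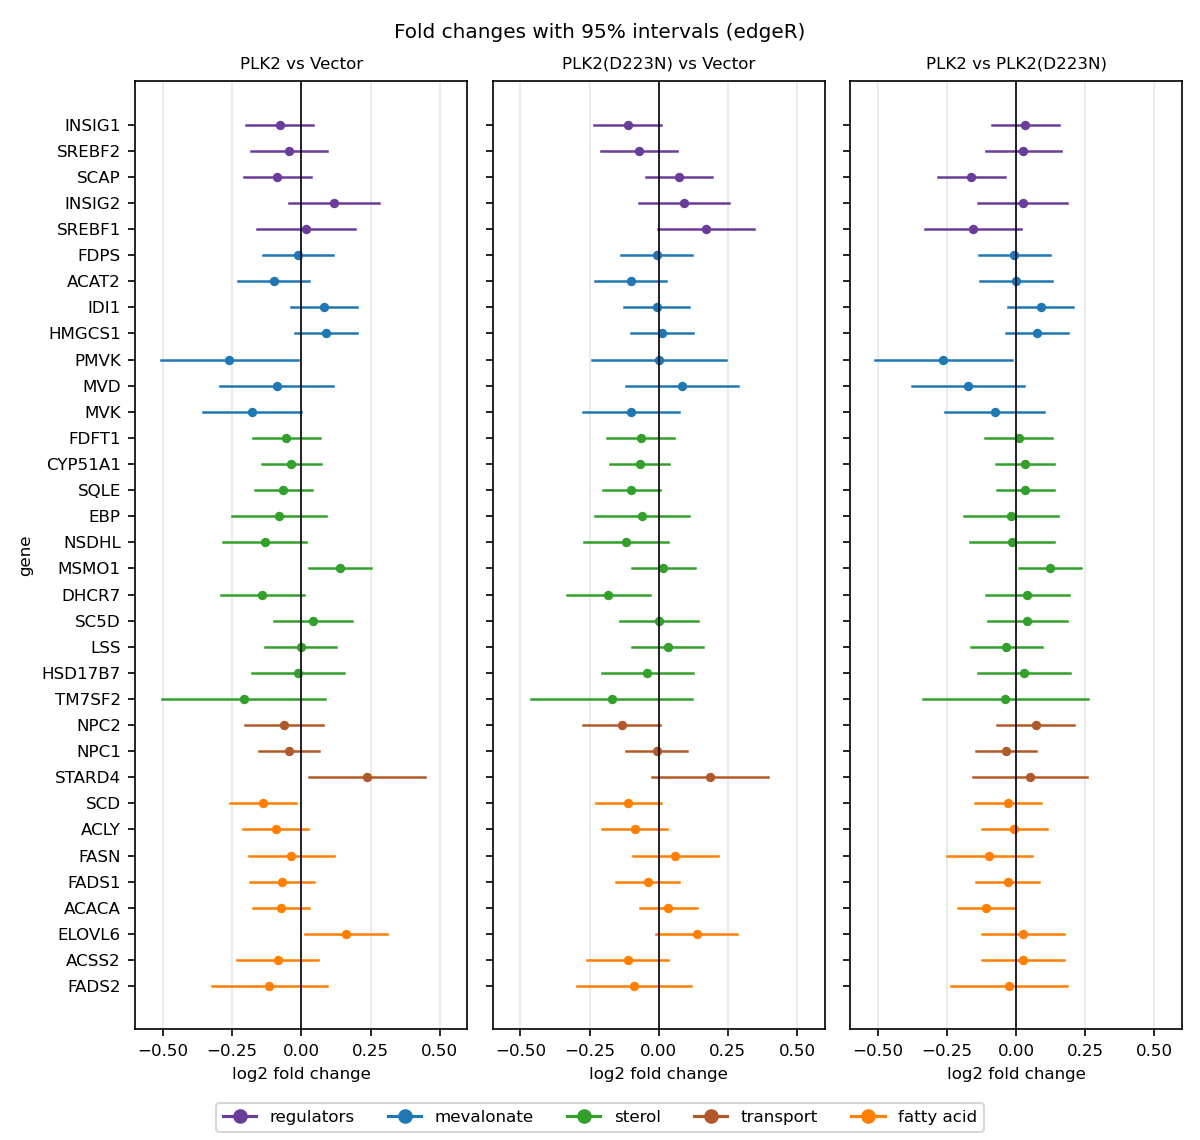
Log2 fold change of each of the 34 genes (x axis, point) with its 95% interval from edgeR (line), in the 3 comparisons, with genes coloured by role. The points stay between -0.26 and 0.24, and the unadjusted interval excludes 0 for 6, 1 and 4 genes from the left panel to the right.

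Against Vector, 26 of the 34 genes had a fold change below 0 with PLK2, and 8 (23.5%) had one above 0, compared with 48.9% above 0 among all genes tested. With PLK2(D223N), 13 (38.2%) were above 0, compared with 52.7% of all genes. Both comparisons use the same Vector libraries. Without Vector replicate 1 the medians of the set were -0.024 for PLK2 and -0.0087 for PLK2(D223N), beside 0.00088 and 0.0050 over all genes. With the GC and length trends removed from each library they were -0.042 and -0.065, beside -0.023 and -0.018 over all genes, and 6 and 10 of 34 genes were above 0. Between PLK2 and PLK2(D223N), 17 of 34 genes were above 0, against 47.9% of all genes. The libraries of the groups compared did not overlap for 6 genes in PLK2 against Vector (17.6%, against 20.1% of all genes), for 7 in PLK2(D223N) against Vector (20.6%, against 13.9%) and for 7 in PLK2 against PLK2(D223N) (20.6%, against 20.5%). HMGCS1 and MSMO1 were the 2 genes higher in every PLK2 than in every Vector library, where 10% of all genes were, and SQLE, DHCR7, NPC1 and SCD were the 4 lower, where 10.1% were. NPC1, which moves cholesterol out of lysosomes, was named here after its values were seen.

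Among the regulators, SREBF2 (GRCh38, chromosome 22, 41833079 to 41907308), which encodes the SREBP form that acts mainly on cholesterol synthesis, had 122, 120.3 and 121 CPM in PLK2 libraries, 117, 119 and 120.4 CPM in PLK2(D223N) libraries and 139, 118 and 117 CPM in Vector libraries. All PLK2 and PLK2(D223N) libraries lay within the range of the Vector libraries, of which replicate 1 was well above the rest. Its log2 fold change was -0.045 (SE 0.064) for PLK2 against Vector, -0.071 (SE 0.064) for PLK2(D223N) against Vector and 0.027 (SE 0.064) for PLK2 against PLK2(D223N), with adjusted p of 0.735, 0.688 and 0.990 by edgeR. Without Vector replicate 1, the values against Vector were 0.043 for PLK2 and 0.016 for PLK2(D223N). SREBF1 (chromosome 17, 17810399 to 17837002), which encodes the SREBP forms that act more on fatty acid synthesis, had 15.96, 15.00 and 16.8 CPM in PLK2 libraries, 19.2, 17.2 and 16.8 CPM in PLK2(D223N) libraries and 16.5, 15.7 and 15.1 CPM in Vector libraries. Every PLK2(D223N) library was above every Vector library, though by a narrow margin, and PLK2 libraries overlapped those of Vector. For SREBF1 the log2 fold changes were 0.017 (SE 0.083) for PLK2 against Vector, 0.17 (SE 0.081) for PLK2(D223N) against Vector and -0.15 (SE 0.081) for PLK2 against PLK2(D223N), and none passed the test (adjusted p of 0.930, 0.574 and 0.865, edgeR). Without PLK2(D223N) replicate 1, the highest of its group, SREBF1 had 0.11 for PLK2(D223N) against Vector and -0.094 for PLK2 against PLK2(D223N). SREBF1 shares exon positions on the opposite strand with RAI1, and as no source states whether the counting used strand, reads of the overlap cannot be told apart.

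SCAP (chromosome 3, 47413694 to 47477126), the escort of the SREBP precursors, had 55.4, 56.7 and 58.3 CPM in PLK2 libraries, 63.8, 62.8 and 63.9 CPM in PLK2(D223N) libraries and 63.9, 57.4 and 59.5 CPM in Vector libraries. All 3 PLK2 libraries were below all 3 PLK2(D223N) libraries, and the Vector libraries overlapped both. The log2 fold change for PLK2 against PLK2(D223N) was -0.16 (SE 0.056, 95% interval -0.28 to -0.041), which did not pass in the fit to all 9 libraries (adjusted p = 0.636, edgeR). INSIG1, which retains SCAP and is itself a classical SREBP target, had 132, 117 and 133 CPM in PLK2 libraries, 122, 126 and 126 CPM in PLK2(D223N) libraries and 136, 134 and 133 CPM in Vector libraries. Its PLK2 libraries included the lowest of the 9, and each PLK2(D223N) library was below each Vector library. The log2 fold changes of INSIG1 were -0.078 (SE 0.057) for PLK2 against Vector, -0.11 (SE 0.057) for PLK2(D223N) against Vector and 0.034 (SE 0.057) for PLK2 against PLK2(D223N) (adjusted p of 0.481, 0.574 and 0.984, edgeR). Without PLK2 replicate 2, the low library, INSIG1 had -0.024 for PLK2 against Vector. INSIG2, the second retention protein, had 21.4, 23.3 and 22.01 CPM in PLK2 libraries, 20.99, 20.8 and 23.7 CPM in PLK2(D223N) libraries and 19.6, 20.5 and 21.5 CPM in Vector libraries, and its groups overlapped throughout. INSIG2 had log2 fold changes of 0.12 and 0.092 for PLK2 and PLK2(D223N) against Vector. The value of INSIG2 for PLK2(D223N) against Vector was 0.028 without PLK2(D223N) replicate 3 and 0.058 without Vector replicate 1.

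**Figure D3:**
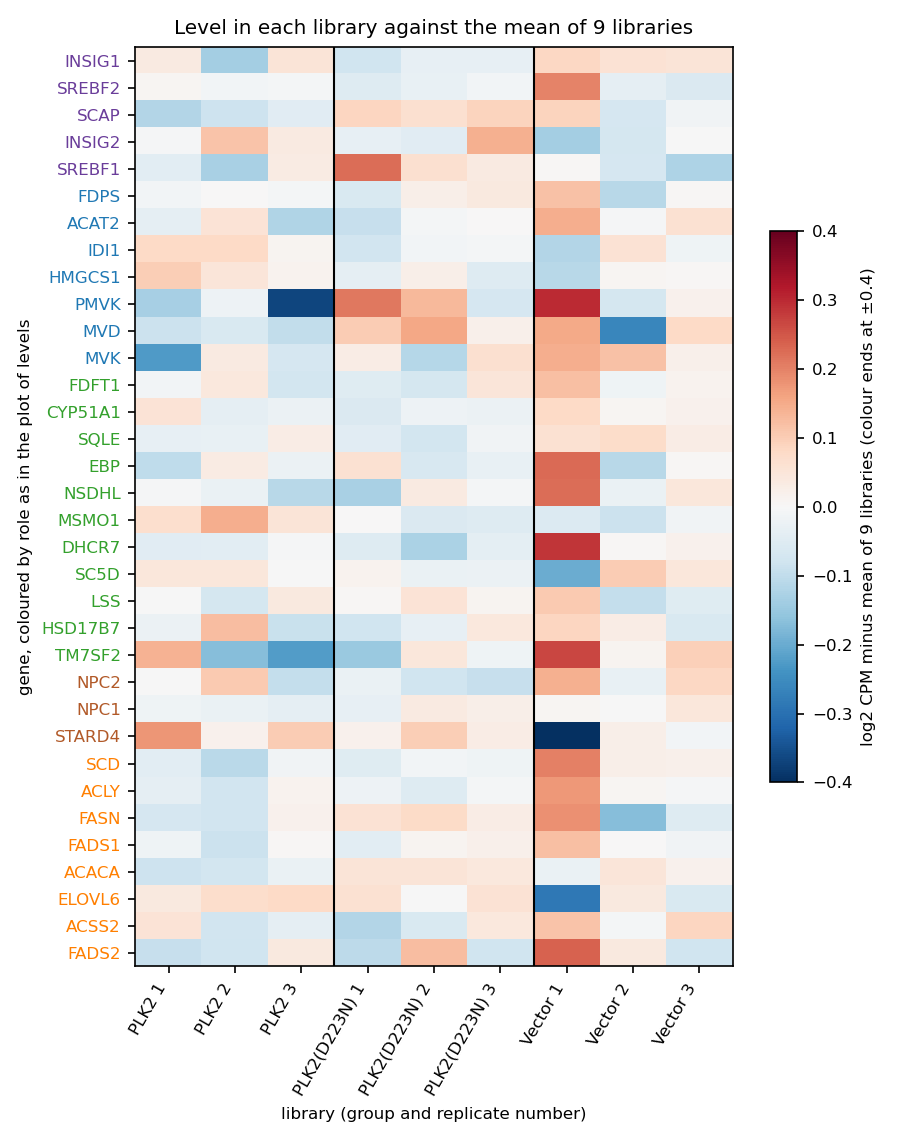
Level of each of the 34 genes in each of the 9 libraries, as log2 CPM minus the mean of the 9 libraries (colour, ending at 0.4 in either direction). Vector replicate 1 holds the strongest colours in both directions and was the highest or lowest of 9 libraries for 27 of 34 genes.

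Of the 7 mevalonate genes, 2 had fold changes above 0 and 5 below 0 for PLK2 against Vector, and none passed the test. HMGCS1 (chromosome 5, 43289395 to 43313512), which makes HMG-CoA at the entry to the pathway, had 209.7, 202 and 198 CPM in PLK2 libraries, 191, 199 and 189 CPM in PLK2(D223N) libraries and 181, 197 and 196 CPM in Vector libraries. PLK2 libraries were all above Vector libraries, the closest pair being 197.8 and 196.6 CPM, and PLK2(D223N) libraries overlapped both. HMGCS1 had a fold change on the log2 scale of 0.088 (SE 0.053, adjusted p = 0.394, edgeR) for PLK2 against Vector, 0.050 without Vector replicate 1. With the GC and length trends removed the value was -0.015, at a GC content of 40.2%. IDI1, which isomerises isopentenyl diphosphate, had 168, 168 and 159.9 CPM in PLK2 libraries, 151, 157 and 158 CPM in PLK2(D223N) libraries and 146, 165 and 157 CPM in Vector libraries. Each PLK2 library was above each PLK2(D223N) library, and the Vector libraries overlapped both. For IDI1 the log2 fold change for PLK2 against PLK2(D223N) was 0.089 (SE 0.055, adjusted p = 0.903, edgeR).

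The kinases and the decarboxylase of mevalonate had lower TPM levels than the other mevalonate genes. PMVK (chromosome 1, 154924734 to 154936991), phosphomevalonate kinase, had 12.1, 13.1 and 10.3 CPM in PLK2 libraries, 15.3, 14.5 and 12.7 CPM in PLK2(D223N) libraries and 16.3, 12.6 and 13.4 CPM in Vector libraries. The lowest library was PLK2 replicate 3 and the highest Vector replicate 1, and the groups overlapped. PMVK had the lowest log2 fold change of the set in both PLK2 comparisons, -0.26 (SE 0.12) against Vector and -0.26 (SE 0.12) against PLK2(D223N), with adjusted p of 0.291 and 0.787 by edgeR. The value against Vector was -0.14 when Vector replicate 1 was left out. Without PLK2 replicate 3 both values were -0.17. MVK, mevalonate kinase, had 16.8, 20.2 and 18.8 CPM in PLK2 libraries, 20.1, 18.2 and 20.6 CPM in PLK2(D223N) libraries and 21.8, 21.4 and 19.98 CPM in Vector libraries, and its log2 fold change for PLK2 against Vector was -0.18 (SE 0.083, adjusted p = 0.305, edgeR). The MVK value was -0.11 without PLK2 replicate 1. MVK overlaps exons of MMAB on the opposite strand. MVD, mevalonate diphosphate decarboxylase, had 15.9, 16.2 and 15.7 CPM in PLK2 libraries, 18.1, 18.8 and 17.1 CPM in PLK2(D223N) libraries and 18.7, 14.1 and 17.8 CPM in Vector libraries. Its PLK2 libraries were below all PLK2(D223N) libraries, while 1 Vector library was below all 3 PLK2 libraries. MVD had a fold change on the log2 scale of -0.17 (SE 0.095, adjusted p = 0.871, edgeR) for PLK2 against PLK2(D223N). FDPS has 8 named pseudogenes, to which the authors' counting could have assigned some of its reads.

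The 11 sterol genes had 9 fold changes below 0 and 2 above 0 for PLK2 against Vector. SQLE, squalene epoxidase, had 178, 178 and 186 CPM in PLK2 libraries, 176, 173 and 180.2 CPM in PLK2(D223N) libraries and 189.9, 192 and 186 CPM in Vector libraries. Both construct groups lay below the Vector libraries without overlap, by small margins, and the closest PLK2 and Vector libraries both round to 186 CPM. SQLE had log2 fold changes of -0.066 (SE 0.048) and -0.099 (SE 0.048) in the comparisons with Vector, with adjusted p of 0.482 and 0.574 by edgeR. LSS, lanosterol synthase, which closes the sterol rings, had 84.97, 81.02 and 87.5 CPM in PLK2 libraries, 85.4, 88.5 and 85.8 CPM in PLK2(D223N) libraries and 91.6, 79.7 and 82.4 CPM in Vector libraries. Its groups overlapped in all comparisons, with log2 fold changes of -0.0020, 0.033 and -0.035 for PLK2 and PLK2(D223N) against Vector and for PLK2 against PLK2(D223N). Without Vector replicate 1, LSS had 0.060 and 0.094 against Vector.

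MSMO1 (chromosome 4, 165327623 to 165343160), the sterol C4 methyl oxidase, had 74.3, 78.4 and 73.5 CPM in PLK2 libraries, 71.04, 68.1 and 68.4 CPM in PLK2(D223N) libraries and 68.2, 66.8 and 70.1 CPM in Vector libraries. All 3 PLK2 libraries were above all 6 others. MSMO1 had the lowest adjusted p of the set for PLK2 against Vector, with a fold change on the log2 scale of 0.14 (SE 0.053, 95% interval 0.027 to 0.25, adjusted p = 0.226, edgeR), and 0.14 without Vector replicate 1. Its value for PLK2 against PLK2(D223N) was 0.12 (SE 0.053, adjusted p = 0.779, edgeR). MSMO1 has a GC content of 38.1%, low within the set. With trends of GC content and length removed from each library its fold change was -0.0019 against Vector and 0.076 against PLK2(D223N). The part of GC content in this change was not tested, and a limit of the removal for low GC genes is given below.

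DHCR7, which makes cholesterol from its last precursor in one branch, had 78.9, 79.04 and 81.1 CPM in PLK2 libraries, 78.5, 74.5 and 79.3 CPM in PLK2(D223N) libraries and 99.3, 81.6 and 82.4 CPM in Vector libraries. Vector replicate 1 was far above the 8 other libraries, and both construct groups were below all Vector libraries. DHCR7 had a fold change on the log2 scale of -0.14 (SE 0.070) for PLK2 and -0.18 (SE 0.070) for PLK2(D223N) against Vector, with adjusted p of 0.326 and 0.574 by edgeR. The values were -0.042 and -0.083 without Vector replicate 1. With the GC and length trends removed they were -0.091 and -0.16 (adjusted p = 0.242 and 0.122, edgeR). TM7SF2, a sterol reductase gene, had 5.00, 4.04 and 3.89 CPM in PLK2 libraries, 4.10, 4.69 and 4.49 CPM in PLK2(D223N) libraries and 5.47, 4.58 and 4.86 CPM in Vector libraries. Its log2 fold changes were -0.21 for PLK2 and -0.17 for PLK2(D223N) against Vector (SE 0.14 each, adjusted p of 0.435 and 0.659, edgeR). They were -0.13 and -0.094 without Vector replicate 1, and the PLK2 value was -0.33 without PLK2 replicate 1. TM7SF2 had the widest interval of the set for PLK2 against Vector, -0.50 to 0.084 on the log2 scale. It shares exon positions with VPS51 on the same strand. CYP51A1, the sterol demethylase gene, was named after its values were seen, as its PLK2(D223N) libraries were all below its Vector libraries (222, 228 and 228 CPM in PLK2(D223N), against 244, 232 and 234 CPM in Vector libraries). The higher gene without overlap in that comparison was SREBF1 (6.66% of all genes were higher in this way), and the 6 lower were SQLE, CYP51A1, DHCR7, INSIG1, SCD and ACLY (7.21% of all genes). CYP51A1 has 3 and HSD17B7 has 2 named pseudogenes.

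Of the 3 transport genes, STARD4 (chromosome 5, 111496033 to 111512590), which carries cholesterol between membranes, had 39.8, 35.7 and 37.8 CPM in PLK2 libraries, 35.7, 37.7 and 36.02 CPM in PLK2(D223N) libraries and 25.7, 35.9 and 34.98 CPM in Vector libraries. Vector replicate 1 was by far the lowest of the 9 libraries, and the 8 others lay between 34.98 and 39.8 CPM. STARD4 had the highest log2 fold change of the set in both comparisons with Vector, 0.24 (SE 0.099, adjusted p = 0.265, edgeR) for PLK2 and 0.19 (SE 0.099, adjusted p = 0.579, edgeR) for PLK2(D223N). Without Vector replicate 1 these values were 0.094 and 0.043. Without Vector replicate 2 instead, the value for PLK2 was 0.32 and passed (adjusted p = 0.0305, edgeR, range over alternatives 0.0305 to 0.607), in a fit that called 12.7% of all genes. STARD4 has the lowest GC content of the set, 34.2%, and with the GC and length trends removed its value for PLK2 against Vector was 0.064. NPC2, which hands cholesterol to NPC1 in the lysosome, had 46.98, 50.6 and 44.1 CPM in PLK2 libraries, 46.2, 44.5 and 44.1 CPM in PLK2(D223N) libraries and 51.9, 46.1 and 49.8 CPM in Vector libraries, and its log2 fold change for PLK2(D223N) against Vector was -0.13 (SE 0.066, adjusted p = 0.574, edgeR). NPC1 overlaps RMC1 and NPC2 overlaps ISCA2 on the opposite strand.

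The 8 fatty acid genes had 7 fold changes below 0 and 1 above 0 for PLK2 against Vector. SCD (chromosome 10, 100347124 to 100364834) had 1136, 1085 and 1158 CPM in PLK2 libraries, 1131, 1161 and 1156 CPM in PLK2(D223N) libraries and 1345, 1188 and 1187 CPM in Vector libraries. Both construct groups lay below all Vector libraries, and Vector replicate 1 was the highest of the 9. SCD had log2 fold changes of -0.14 (SE 0.055, adjusted p = 0.248, edgeR) for PLK2 and -0.11 (SE 0.055, adjusted p = 0.574, edgeR) for PLK2(D223N) against Vector. They were -0.076 and -0.047 without Vector replicate 1. With the GC and length trends removed they were -0.15 and -0.12 (adjusted p = 0.0977 and 0.236, edgeR). ACLY had 636, 618 and 659 CPM in PLK2 libraries, 643, 629.7 and 648 CPM in PLK2(D223N) libraries and 735, 656 and 649.5 CPM in Vector libraries. Its Vector replicate 1 was again the highest, and its log2 fold changes against Vector were -0.093 and -0.087, or -0.033 and -0.028 without that library. ELOVL6, which lengthens palmitate to stearate, had 114, 117 and 118 CPM in PLK2 libraries, 116, 111 and 116 CPM in PLK2(D223N) libraries and 91.3, 115 and 107 CPM in Vector libraries. Vector replicate 1 was the lowest here, and the log2 fold change for PLK2 against Vector was 0.16 (SE 0.069, adjusted p = 0.274, edgeR), or 0.075 without it. With the GC and length trends removed the ELOVL6 value was 0.074. Without Vector replicate 2 both genes passed for PLK2 against Vector, where 12.7% of all genes did, SCD with -0.17 (adjusted p = 0.0498, range over alternatives 0.0498 to 0.546) and ELOVL6 with 0.23 (adjusted p = 0.0222, range 0.0222 to 0.534), by edgeR.

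FASN (chromosome 17, 82078333 to 82098332), fatty acid synthase, had 306, 304 and 324 CPM in PLK2 libraries, 333, 338 and 327 CPM in PLK2(D223N) libraries and 364, 285 and 309 CPM in Vector libraries. Its PLK2 libraries were all below its PLK2(D223N) libraries, and its Vector libraries spread wider than both. Against Vector, FASN had -0.036 for PLK2 and 0.060 for PLK2(D223N) on the log2 scale, or 0.067 and 0.16 without Vector replicate 1. Without that library the value for PLK2(D223N) passed (adjusted p = 0.0449, edgeR, range over alternatives 0.0449 to 0.940), where 0.161% of all genes did. ACACA (chromosome 17, 37084988 to 37406818), the acetyl-CoA carboxylase that commits carbon to fatty acids, had 196, 197 and 203 CPM in PLK2 libraries, 215, 214 and 213 CPM in PLK2(D223N) libraries and 203, 214 and 209 CPM in Vector libraries. The PLK2 libraries were again all below the PLK2(D223N) libraries. The log2 fold change for PLK2 against PLK2(D223N) was -0.096 (SE 0.072, adjusted p = 0.924) for FASN and -0.11 (SE 0.048, adjusted p = 0.787) for ACACA, by edgeR. The desaturase genes FADS1 and FADS2, which make polyunsaturated fatty acids and share exon positions on opposite strands, had log2 fold changes of -0.071 and -0.12 for PLK2 against Vector, -0.040 and -0.091 for PLK2(D223N) against Vector, and -0.031 and -0.026 for PLK2 against PLK2(D223N). FADS1 had 155, 148 and 157 CPM in PLK2 libraries, 152, 158 and 159 CPM in PLK2(D223N) libraries and 171, 157 and 155 CPM in Vector libraries. FADS2 had 13.4, 13.5 and 14.6 CPM in PLK2 libraries, 13.2, 15.5 and 13.5 CPM in PLK2(D223N) libraries and 16.8, 14.6 and 13.5 CPM in Vector libraries. For both genes the groups overlapped in all comparisons, and without Vector replicate 1 the values for PLK2 against Vector were -0.026 for FADS1 and -0.022 for FADS2. FADS2 also shares exon positions with FEN1 on the same strand, and FADS2 and SCD each have 1 named pseudogene.

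SCAP, FASN and ACACA passed the test for PLK2 against PLK2(D223N) when only those 6 libraries were fitted, which leaves out the wider spread of the Vector libraries. In that fit SCAP fell by 0.16 on the log2 scale (adjusted p = 0.0203), ACACA by 0.11 (adjusted p = 0.0153) and FASN by 0.096 (adjusted p = 0.0335), while 3.92% of all genes were called (edgeR). Over the 19 alternatives of the comparison, the adjusted p ran from 0.0203 to 1.00 for SCAP, from 0.0153 to 1.00 for ACACA and from 0.0335 to 1.00 for FASN. SCAP was also called without Vector replicate 1 (adjusted p = 0.0372, with 2.43% of all genes called). With the GC and length trends removed, the fold changes were -0.11 for SCAP, -0.085 for ACACA and -0.024 for FASN, and none was called. The 7 genes without overlap in this comparison were IDI1 and MSMO1, higher in PLK2 (11% of all genes were), and MVD, SREBF1, SCAP, FASN and ACACA, lower in PLK2 (9.49% were).

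GC content varied widely within the set, from 34.2 to 65.6% of the transcript with a median of 50.2%, against a median of 48.5% over the genes tested. Within the set, fold changes fell with GC content in both PLK2 comparisons, with little such trend for PLK2(D223N) against Vector. For PLK2 against Vector, 7 of the 9 genes with a GC content below 45% were above 0, 0 of the 13 genes between 45 and 55%, and 1 of the 12 genes above 55%. Over all genes tested the shares above 0 in these classes were 78.9%, 33.02% and 28.4%. The class medians of the set were 0.088, -0.078 and -0.088 on the log2 scale, beside 0.088, -0.048 and -0.067 over all genes. For PLK2 against PLK2(D223N), which uses no Vector library in its means, 9 of 9, 6 of 13 and 2 of 12 genes were above 0, beside 64.6%, 43.1% and 32.5% of all genes. For PLK2(D223N) against Vector the counts were 6 of 9, 1 of 13 and 6 of 12, beside 74.5%, 37.0% and 41.9%.

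Across the 34 genes, Pearson's r between GC content and log2 fold change was -0.66 for PLK2 against Vector, -0.12 for PLK2(D223N) against Vector and -0.72 for PLK2 against PLK2(D223N). Over the 12841 tested genes with a GC content it was -0.25, -0.14 and -0.19. These are descriptions across genes that share the same libraries, so no p is given. Vector replicate 1 minus the mean of Vector replicates 2 and 3 gave r of 0.77 over the 34 genes and 0.61 over all genes. In that difference the class medians of the set were -0.12, 0.12 and 0.21 from low to high GC content. Over all genes they were -0.21, 0.068 and 0.17. With the trends removed, the set had 0.12, 0.067 and 0.030, and all genes had 0.021, 0.020 and -0.0014. The low GC class of the set thus changed sign rather than moving to 0. Without Vector replicate 1, r over the 34 genes was -0.34 for PLK2 against Vector, 0.43 for PLK2(D223N) against Vector and -0.72 for PLK2 against PLK2(D223N). With the GC and length trends removed from each library, r was -0.13, 0.26 and -0.43 in the 3 comparisons. The class medians for PLK2 against Vector were then -0.015, -0.048 and -0.048, and 0 of 34 genes were called in each comparison by edgeR, where 3.03%, 0.0542% and 0.696% of all genes were. At an unadjusted p below 0.05 the counts were then 7, 7 and 3 of 34, against 19.2%, 14.9% and 9.22% of all genes. The part of GC content in the fold changes of single genes was not tested.

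**Figure D4:**
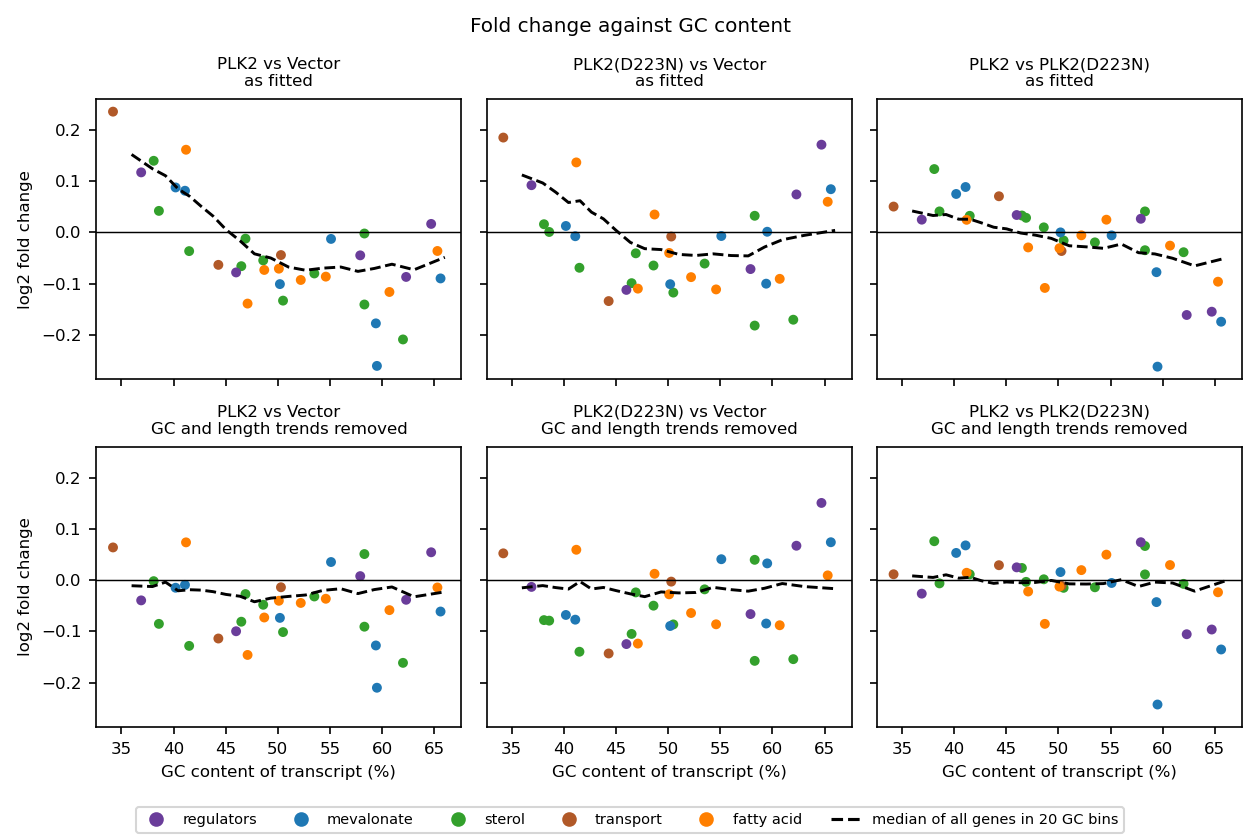
Log2 fold change of the 34 genes (y axis) against the GC content of the transcript in percent (x axis), for the 3 comparisons as fitted (top) and with GC and length trends removed (bottom), with a dashed line for the median of all tested genes in 20 GC bins. In PLK2 against Vector the points as fitted follow the dashed line from above 0 at low GC content to below 0 at high GC content, and they lie flatter in the lower panel.

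Lists of related genes outside the set were examined in the same way. Of 22 further genes of sterol regulation and handling, 11 genes of the isoprenoid branch and 36 genes of fatty acid and glycerolipid synthesis, 22, 11 and 33 were tested, and 0 were called in any comparison by edgeR, the DESeq2 Wald test or limma on log2(TPM + 1). At an unadjusted p below 0.05 in edgeR the counts were 4, 4 and 1 for PLK2 against Vector, 4, 0 and 2 for PLK2(D223N) against Vector, and 0, 0 and 3 for PLK2 against PLK2(D223N). For PLK2 against Vector these are 18.2%, 36.4% and 3.03% of the lists, against 16.4% of all genes tested, for PLK2(D223N) against Vector 18.2%, 0% and 6.06%, against 8.53%, and for PLK2 against PLK2(D223N) 0%, 0% and 9.09%, against 6.04%. The median log2 fold changes of the lists for PLK2 against Vector were -0.039, 0.00050 and -0.062. With GC and length trends removed, 3 of the 66 tested genes of these lists (4.55%, against 3.03% of all genes) were called for PLK2 against Vector, all lower, and they are named after their values were seen. STARD3, which binds cholesterol at late endosomes, had 21.4, 21.2 and 23.1 CPM in PLK2, 22.9, 23.3 and 23.4 CPM in PLK2(D223N) and 26.7, 26.4 and 27.2 CPM in Vector libraries. Every library with a PLK2 construct was below every Vector library. Its log2 fold change for PLK2 against Vector was -0.29 as fitted (SE 0.065, adjusted p = 0.0554, edgeR) and -0.24 with the trends removed (adjusted p = 0.0495). ERLIN2, of the sterol-regulated degradation machinery, and HACD3, a dehydratase of fatty acid elongation, had -0.16 and -0.16 with the trends removed (adjusted p = 0.0399 and 0.0265, edgeR) and -0.088 and -0.083 as fitted (adjusted p = 0.365 and 0.382).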

How the data were processed

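Per the labels' protocols, mRNA was enriched on oligo(dT) magnetic beads. The submitters' processing notes name RSEM 1.3.1, Bowtie2 and DESeq2 1.4.5, and build GRCh38.p13. No source used here gives their roles, the gene annotation or a strand setting. The deposited table holds the authors' estimated counts and TPM per gene, per the file headers. Another 18 per-library columns (FPKM and scaled counts) were not used. One Vector column was matched to a title with transposed letters.

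Estimated counts were rounded, filtered by filterByExpr and scaled by TMM, and all 9 libraries entered edgeR 4.0.16 (robust quasi-likelihood, group as the only term, two-sided). In this fit, p-values set the difference between groups against the spread of these libraries within their groups, estimated over all 9 libraries. Other software was R 4.3.3, DESeq2 1.42.0, limma 3.58.1 and Python 3.11.15, and the scripts were tested on simulated data. Levels are CPM or deposited TPM.

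GC content, length and coordinates came from GENCODE release 29 (GRCh38), for 12841 of 12924 tested genes. Their trends were removed in each library by loess (span 0.3).

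The genes and lists were chosen with earlier results of these data known. Named genes are the 3 highest and 3 lowest fold changes per comparison, any called gene, and a list of regulators and main enzymes. Exceptions are said where they occur. The 19 alternatives are scaling by DESeq2 size factors, a Wald test in DESeq2, a lax filter of 1 count, a strict one of 10 counts and a mean of 1 CPM, a replicate block, the 6 libraries compared, PLK2 removed before scaling, the trends removed with and without the block, limma on log2(TPM + 1) for a mean of at least 1 TPM, and each library left out.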

Additional observations from a re-analysis of the deposited data

How the results depend on the processing

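For the 34 genes, 0 were called under each alternative, except 3 (SCAP, ACACA and FASN, lower) for PLK2 against PLK2(D223N) with the 6 libraries compared, and except some fits that left out 1 library. Leaving out 1 library gave 0 to 3 genes called for PLK2 against Vector, 0 to 1 for PLK2(D223N) against Vector and 0 to 1 for PLK2 against PLK2(D223N). The 3 came without Vector replicate 2: ELOVL6 (0.23, adjusted p = 0.0222) and STARD4 (0.32, adjusted p = 0.0305) higher and SCD lower (-0.17, adjusted p = 0.0498) by edgeR, where 12.7% of all genes were called. The adjusted p of these genes over the 19 alternatives ran from 0.0222 to 0.534, 0.0305 to 0.607 and 0.0498 to 0.546. Without Vector replicate 1, FASN was called higher in PLK2(D223N) than in Vector (0.16, adjusted p = 0.0449, edgeR, range 0.0449 to 0.940, with 0.161% of all genes called) and SCAP lower in PLK2 than in PLK2(D223N) (-0.16). Of the 646 values of single genes per comparison, 3, 1 and 4 became calls in the order PLK2 against Vector, PLK2(D223N) against Vector and PLK2 against PLK2(D223N). The sign differed from the main value in 31, 51 and 52 of them, in 12, 17 and 20 genes, and none of these was called.

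The number of all genes called for PLK2 against Vector (66) was 143 with the DESeq2 Wald test, 136 with no filter, 23 with the 6 libraries compared, 391 with GC and length trends removed, 371 with these and the replicate block, 19 with limma on log2(TPM + 1), and 13 to 1656 without 1 library (1656 without Vector replicate 2, 363 without Vector replicate 1, 13 without PLK2 replicate 2). For PLK2(D223N) against Vector (3) it was 9 with the DESeq2 Wald test, 5 with no filter, 7 with trends removed, 11 with these and the block, and 2 to 347 without 1 library (347 without Vector replicate 2). For PLK2 against PLK2(D223N) (21) it was 37 with the DESeq2 Wald test, 35 with no filter, 502 with the 6 libraries compared, 90 with trends removed, 91 with these and the block, 11 with limma on log2(TPM + 1), and 9 to 317 without 1 library (317 without Vector replicate 1, 9 without PLK2(D223N) replicate 2). The cause of these differences was not tested.

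The median of the 34 genes on the log2(TPM + 1) scale was 0.023 for PLK2(D223N) against Vector and -0.048 for PLK2 against PLK2(D223N), beside 0.054 and -0.053 over all genes. Without 1 library, the median for PLK2 against PLK2(D223N) was -0.0064 to 0.016. The replicate block called 76, 4 and 20 genes in the 3 comparisons and 0 of the 34. Libraries with the same number did not deviate together (correlations of -0.10 to 0.098), so the numbers were not taken as pairs. With 3 libraries a group, the median half-width of the unadjusted interval over the 34 genes was 0.14 on the log2 scale. That width is not a limit of detection. Smaller differences were called with only the 6 libraries of PLK2 and PLK2(D223N) fitted (ACACA at -0.11 and FASN at -0.096). The main test is adjusted for the number of genes tested, and larger differences went uncalled in it.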
